A study of Mus musculus with 12 samples.

Results

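A set of 48 genes that lie along mouse chromosome 12 and are used by many cell types was followed through 12 mammary tumors, with attention to tumors 3 and 4, which came from the same mouse. The 48 genes were looked up by symbol among the 47593 genes of the expression table, and all 48 were found and placed on chromosome 12. They were chosen from earlier results on these same values, in which genes of this chromosome were high in tumors 3 and 4. The levels in tumors 3 and 4 against the other 10 tumors are therefore a description and carry no p-value. The description goes against the label of a chromosome-wide rise in part. Of the 48 genes 41, or 85.4%, were above the median of the other tumors in both tumors 3 and 4, where 44.8% of all expressed genes were. The excess was 2.05-fold at the median of the members on the distal side of the chromosome. On the proximal side it was 1.21-fold, with differences on both sides of 0, and 1.27-fold over 169 other proximal genes.

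The 12 tumors were untreated mammary tumors of female mice whose genotype is given as MADM RG;GR alleles on a mixed background. MADM, mosaic analysis with double markers, turns rare cells of a heterozygous mouse into labelled homozygous mutant cells through recombination between homologous chromosomes; here a floxed Brca1 allele and a p53 knockout allele were on the recombining chromosome 11, and Cre was driven by the MMTV promoter, which is active in mammary epithelium. Each such event can also leave a wild-type sister cell, and cells that did not recombine stayed heterozygous, so a piece of tumor could hold cells of all 3 kinds. Each tumor was 1 library of polyA RNA. All 12 tumors had the same genotype, no tumor came from a mouse of another genotype, and ages are not in the labels. The tumors came from 9 mice: 7 mice gave 1 tumor each, tumors 3 and 4 came from the same mouse, and tumors 10, 11 and 12 came from another.

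Chromosome 12 carries no MADM cassette in this model. Its genes have no common function: the members include transcription factors that respond within minutes to a stimulus, kinases and adaptors, translation factors, subunits of the proteasome and of motor complexes, and enzymes of central metabolism. As background, the RNA level of most genes follows the number of gene copies in a cell to some degree, while genes under strong feedback or cell-type control often do not. DNA copy number was not analysed here, and no cause is assigned to the values below.

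Levels are given as TPM, transcripts per 1000000 transcripts, which is a share of all transcripts in a tumor corrected for transcript length. Differences are the mean of tumors 3 and 4 minus the median of the other 10, both as log2(TPM + 1), so that a difference of 1 is close to a 2-fold excess for well expressed genes and less than the true ratio for genes at a few TPM. Read numbers are not part of the table, so the depth and the counting error are unknown, and between 21415 and 23443 genes had a value above 0 in a tumor. All 48 members had a mean of at least 1 TPM, from 6.19 for Hdac9 to 467 for Hsp90aa1, as did 16779 genes in all. Tumors of the same mouse are not independent, and 1 mouse against 8 mice allows no exact permutation p under 0.111.

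Several tumors stood apart before any chromosome was considered. Tumor 2 is labelled a mammary tumor, but its epithelial marker genes summed to 1.61 TPM, with Epcam at 0, and its B lymphocyte markers summed to 1852 TPM. In tumor 8 Epcam was 2.03 TPM and the fibroblast markers summed to 3115 TPM, the highest of the 12. Tumor 9 had T lymphocyte markers at 81.7 TPM in sum, also the highest. Tumors 3 and 4 were epithelial by these markers, at 6800 and 5150 TPM in sum. They also held skeletal muscle RNA, with the 4 markers at 258 and 179 TPM in sum against 0.019 to 29.1 in the other 10, and 3 of the 4 genes above all others. Fibroblast markers summed to 1085 and 2851 TPM against 83.0 to 3115 TPM with a median of 501 in the other 10. Adipocyte markers summed to 129 and 348 TPM against 12.4 to 157 TPM with a median of 38.4, so tumor 4 was above the others. In whole tumor RNA, fewer cells of a type and less RNA per cell cannot be told apart. The part that skeletal muscle, fibroblasts and adipocytes had in the results below was not tested.

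Over the 48 members the median difference was 0.948, a fold of 1.93 on the TPM + 1 scale. Tumor 3 alone gave a median of 1.04 and tumor 4 alone 0.843. Both tumors lay above the median of the other 10 for 41 members, or 85.4%, where 44.8% of all expressed genes did so. Both lay below it for 5 members, Id2, Ahr, Tspan13, Nfkbia and Ckb, where 37.2% of all expressed genes did so. For 34 members, or 70.8%, both tumors exceeded that median by at least 0.5, against 16.4% of expressed genes, and for 28 members, or 58.3%, both exceeded every one of the other 10 tumors, against 8.04% of expressed genes. The members were chosen from this contrast, so nothing is read from the gap between these shares. No member was below all of the other 10.

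The excess was not even. The difference ran from -0.64 for Tspan13 to 2.00 for Hsp90aa1, with an interquartile range from 0.455 to 1.29, and 27 of the 48 lay between 0.75 and 1.5. The standard deviation over members was 0.589. The spread of a member over the 8 other mice is a different measure. Its median standard deviation was 0.464, with a range from 0.217 to 1.69. Against the mean of those mice, 21 members stood more than 2 of their own standard deviations higher in tumors 3 and 4, where 5.34% of all expressed genes did so, and 0 stood that far lower, where 2.26% did so. These counts too are from the contrast that chose the members. The members closest to a difference of 0.5 were Zfp36l1 at 0.47 and Arf6 at 0.55.

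**Figure D1:**
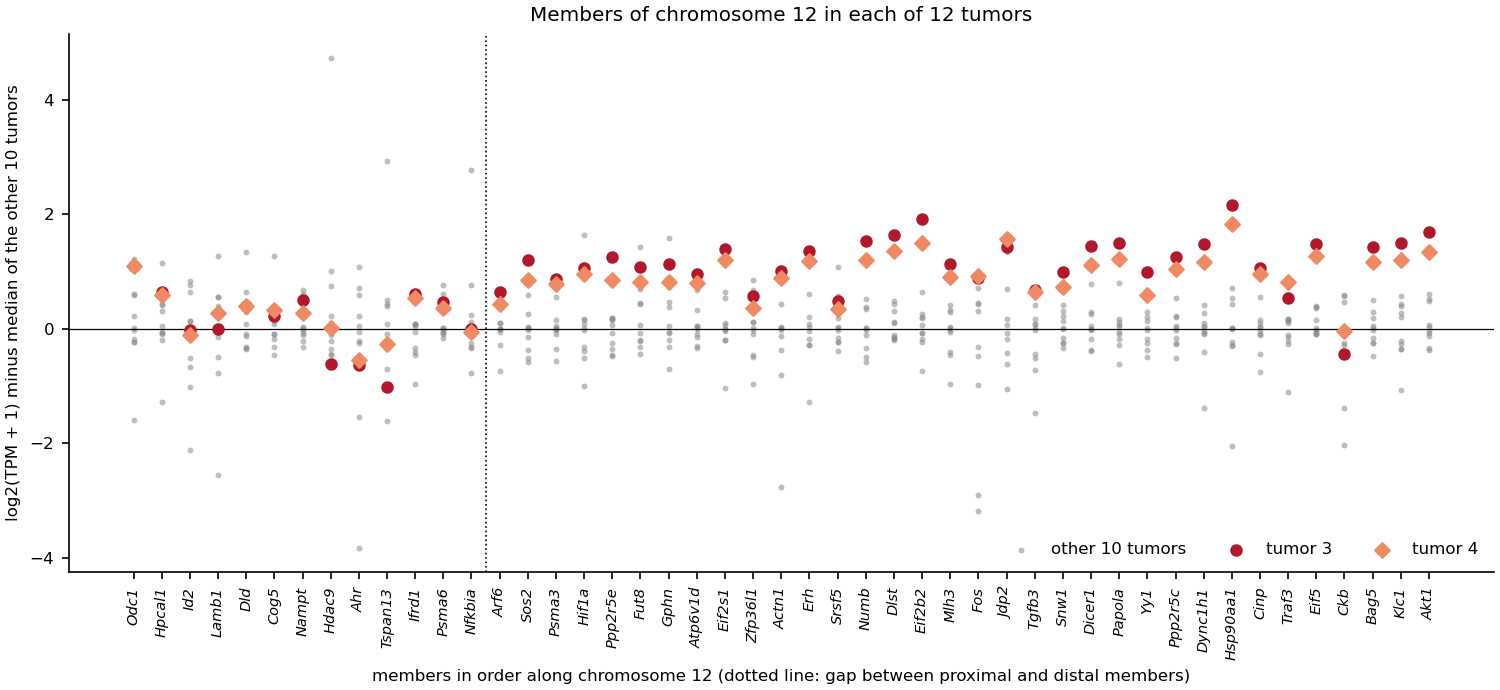
Members in order along chromosome 12 (horizontal axis) against its log2(TPM + 1) minus the median of the other 10 tumors (vertical axis), with tumor 3 as circles, tumor 4 as diamonds and the other 10 tumors as small grey points (47 of the 48 members are plotted). Over all 48, 3 of 13 members left of the dotted line and 31 of 35 right of it were at least 0.5 above the median in both tumors. Of all expressed genes 16.4% were.

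Position along the chromosome separated most of the high members from the low ones. The members left a gap between 55.5 and 69.4 Mb (GRCm38), and a division at 60 Mb, made after the values had been seen, put 13 members on the proximal and 35 on the distal side. The distal members had a median difference of 1.03, with an interquartile range 0.466 wide, and the proximal members had a median of 0.276. On the distal side 34 of 35 members were above the median in both tumors, 31 by at least 0.5, and 27 were above all of the other 10. On the proximal side the same counts were 7, 3 and 1 of 13, or 53.8%, 23.1% and 7.69%. Of all expressed genes 44.8%, 16.4% and 8.04% did so, close to the proximal shares. All 21 members beyond 2 standard deviations were distal. Across members the Spearman correlation of the difference with gene order was 0.602 (n = 48), within the distal members it was 0.307 (n = 35), and with mean TPM it was 0.185 (n = 48). These points share the same 12 libraries.

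Leaving out the tumors that stood apart did little to this division. Without tumors 2 and 9 the distal median was 1.02 and the proximal median 0.365, and without tumors 2, 8 and 9 they were 1.02 and 0.368. The distal members above every remaining tumor were 30 and 31 in these settings, where fewer tumors had to be exceeded. With each tumor centred on the genes of the other autosomes the distal median was 1.04 and the proximal median 0.250, and 21 distal members and 0 proximal members were above all of the other 10.

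The largest difference was that of Hsp90aa1, the stress-inducible cytosolic HSP90 chaperone, which folds many kinases and steroid receptors. It lies on the minus strand at chr12:110690605-110702728. Its level was 1381 TPM in tumor 3 and 1097 TPM in tumor 4, and from 73.4 to 503 TPM with a median of 307 in the other 10. The lower of the pair was far above the highest of the others, and the low end of the range was tumor 9. Bag5, a co-chaperone of HSP70, was at 54.3 and 44.9 TPM, against 13.8 to 28.2 TPM with a median of 19.5. The groups did not overlap. The proteasome subunit genes differed from each other: Psma3, on the distal side, was at 334 and 317 TPM against 123 to 270 TPM, while Psma6, on the proximal side, was at 288 and 269 TPM, inside the range of 186 to 356 TPM. The encoded proteins are both alpha-ring subunits of the 20S core, which cuts ubiquitin-tagged proteins into peptides.

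The 3 translation factor genes were all distal, with differences from 1.30 to 1.71. Eif5 encodes the protein that makes eIF2 hydrolyse GTP when the start codon is found, Eif2s1 the alpha subunit of eIF2, whose phosphorylation slows translation under stress, and Eif2b2 a subunit of eIF2B, which reloads eIF2 with GTP. Eif5 (chr12:111538016-111546752) was at 308 and 264 TPM, against 102 to 144 TPM with a median of 109. Its standard deviation over the other mice was the lowest of all members, 0.22, and the difference came to 5.77 of these from their mean. Eif2b2 was at 232 and 173 TPM against 36.3 to 95.4 TPM with a median of 60.8, a difference of 1.71 and the second in size after Hsp90aa1. Eif2s1 was at 137 and 120 TPM, against 24.8 to 81.2 TPM with a median of 51.4. In all 3 genes tumors 3 and 4 were the 2 highest of the 12.

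Eif2s1 is the neighbour of Atp6v1d, a subunit of the V1 sector of the V-ATPase, the pump that acidifies lysosomes. The genes point away from each other, Atp6v1d on the minus strand at chr12:78840725-78861638 and Eif2s1 on the plus strand at chr12:78861819-78887010, and only 180 bases lie between their annotated starts. Atp6v1d was at 149 and 133 TPM in tumors 3 and 4, against 59.9 to 122 TPM with a median of 75.9, so both genes of this arrangement were above all of the other 10. The stretch between the starts is shown because both genes share it. It is taken from RefSeq (GRCm38.p6), chr12:78861639-78861818, minus strand, and reads 5′ to 3′ toward Atp6v1d with the GC box in capitals.
Atp6v1d-Eif2s1: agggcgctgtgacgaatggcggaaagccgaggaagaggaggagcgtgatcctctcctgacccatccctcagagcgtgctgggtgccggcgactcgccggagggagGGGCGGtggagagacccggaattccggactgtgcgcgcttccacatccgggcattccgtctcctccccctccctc
Both strands were searched for a few short motifs. The GC box, GGGCGG, occurred once in this stretch, and 30.2% of 32817 RefSeq promoters held it in a window of the same length. The CCAAT box did not occur in it and was held by 27.5% of such windows. The E-box, searched as CACGTG, was also not found there, where 4.81% of windows held it. The cAMP response element, searched as TGACGTCA, was not found either, and 1.45% of windows held it.

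Signalling genes made up 10 members. Akt1 (chr12:112653821-112674884), the most distal member, encodes the kinase at the centre of growth factor and PI3K signalling. It was at 629 and 495 TPM in tumors 3 and 4, against 151 to 298 TPM with a median of 194, a difference of 1.52. The lower of the pair was thus well above the highest of the other tumors. Numb, an inhibitor of Notch signalling that is handed to only 1 daughter in asymmetric divisions, was at 79.8 and 63.5 TPM, against 17.7 to 39.1 TPM with a median of 27.0. Sos2, an exchange factor that loads RAS with GTP, was at 40.2 and 31.5 TPM, against 10.9 to 25.9 TPM.

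The 2 regulatory B subunits of protein phosphatase 2A among the members, Ppp2r5c and Ppp2r5e, had differences of 1.15 and 1.06. They lie far apart on the distal side, and both were above all of the other 10 tumors. Ppp2r5e was at 48.9 and 36.9 TPM against a narrow 14.04 to 22.98 TPM in the others. Tgfb3, a ligand of the TGF-beta family, and Traf3, an adaptor that holds back non-canonical NF-kB signalling, had smaller differences, 0.66 and 0.68. Traf3 was 1 of the members with a higher value in tumor 4 than in tumor 3, at 33.7 against 27.4 TPM, and the others reached 21.2 TPM. Arf6, a small GTPase of membrane traffic and the most proximal of the distal members, was at 123 and 107 TPM, and 1 other tumor, tumor 2 at 116 TPM, lay between them. Hpcal1, a calcium sensor at the proximal end, was at 65.5 and 63.3 TPM, below the 92.7 TPM of tumor 9.

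Nfkbia, the signalling gene at the edge of the proximal side, had no excess. It encodes IkB-alpha, the inhibitor that holds NF-kB in the cytoplasm and that NF-kB itself induces. Its level was 131 and 126 TPM in tumors 3 and 4, against 76.3 to 904 TPM with a median of 131 in the others. The 904 TPM were from tumor 9, the next highest was tumor 8 at 223 TPM, and 6 of the other 10 tumors exceeded the lower of the pair. Its promoter is shown as that of the feedback gene among the members without an excess. The 250 bases before its RefSeq start (GRCm38.p6), chr12:55492648-55492897, minus strand, are given 5′ to 3′, with matches to the NF-kB motif and to the GC box in capitals.
Nfkbia: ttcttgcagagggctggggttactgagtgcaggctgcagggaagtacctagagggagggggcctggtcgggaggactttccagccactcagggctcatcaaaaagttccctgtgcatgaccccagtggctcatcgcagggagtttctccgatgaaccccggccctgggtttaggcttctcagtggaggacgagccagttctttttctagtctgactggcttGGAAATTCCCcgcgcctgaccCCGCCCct
The NF-kB match began 29 bases before the start and the GC box match began 8 bases before it, both on the opposite strand. Of the 32817 promoters, 3.9% held the NF-kB motif and 32.7% held GGGCGG in such a window. TATAAA did not occur in it.

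The transcription factors and immediate response genes were mixed, with a range from -0.59 for Ahr to 1.5 for Jdp2. Of these 9 genes 6, or 66.7%, were above the median in both tumors, where 44.8% of all expressed genes were. Fos (chr12:85473890-85477273), a partner in the AP-1 dimer that is induced within minutes by growth factors and stress, was at 68.7 and 70.8 TPM in tumors 3 and 4. In the other 10 it ran from 3.18 to 66.4 TPM with a median of 37.6. Both tumors were above the rest, with tumor 1 at 66.4 TPM just below them, and tumors 2 and 9 were at 3.18 and 4.05 TPM. Jdp2, a repressor of AP-1 next to Fos, was at 37.9 and 41.9 TPM, with tumors 1 and 8 at 36.4 and 35.9 TPM and a median of 13.5 TPM over the other 10. Both genes thus had a large difference from the median and little distance to the highest of the other tumors.

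The promoter of Fos is shown because Fos is the textbook immediate early gene and much of its control lies close to the start. The 250 bases before the RefSeq start (GRCm38.p6), chr12:85473640-85473889, plus strand, are given 5′ to 3′ with TATAAA and the GC box in capitals.
Fos: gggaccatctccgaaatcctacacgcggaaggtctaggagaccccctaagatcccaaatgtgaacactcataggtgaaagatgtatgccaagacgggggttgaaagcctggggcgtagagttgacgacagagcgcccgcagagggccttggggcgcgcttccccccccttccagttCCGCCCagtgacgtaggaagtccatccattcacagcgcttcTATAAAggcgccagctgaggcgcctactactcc
TATAAA began 33 bases before the start and was held by 12.4% of promoters, and the GC box, on the opposite strand, began 74 bases before it. The full cAMP response element did not occur in this stretch and was held by 1.55% of promoters in such a window. The CCAAT box, held by 33.8%, did not occur in it either.

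Hif1a, the oxygen-regulated subunit of HIF, was at 93.5 and 87.1 TPM in tumors 3 and 4, above 9 of the other 10 tumors and below tumor 8 at 140 TPM. Snw1, a transcription and splicing cofactor, and Yy1, a zinc finger factor that both activates and represses, were above all of the other 10, with differences of 0.87 and 0.79. Yy1 was at 78.7 TPM in tumor 3 but at 59.3 TPM in tumor 4, next to 57.8 TPM in tumor 2. On the proximal side only Ifrd1, a stress-induced regulator of transcription, was above all others, at 70.2 and 66.8 TPM against a highest of 65.7 TPM in tumor 8.

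Id2, a helix-loop-helix inhibitor of differentiation, was at 85.0 and 79.1 TPM against 19.1 to 153 TPM, close to the median of 86.1 TPM. Ahr, the receptor for dioxin and related ligands, was at 9.91 and 10.6 TPM, below 8 of the other 10 tumors, whose median was 15.9 TPM. Hdac9, a class IIa histone deacetylase, was at 0.473 and 1.30 TPM, and its 58.9 TPM in tumor 2 was far above the 0.64 to 3.57 TPM of the others. Id2, Ahr and Hdac9 are all proximal, and Hdac9, Ahr and Tspan13 are consecutive members along the chromosome with the 3 lowest differences of all 48.

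**Figure D2:**
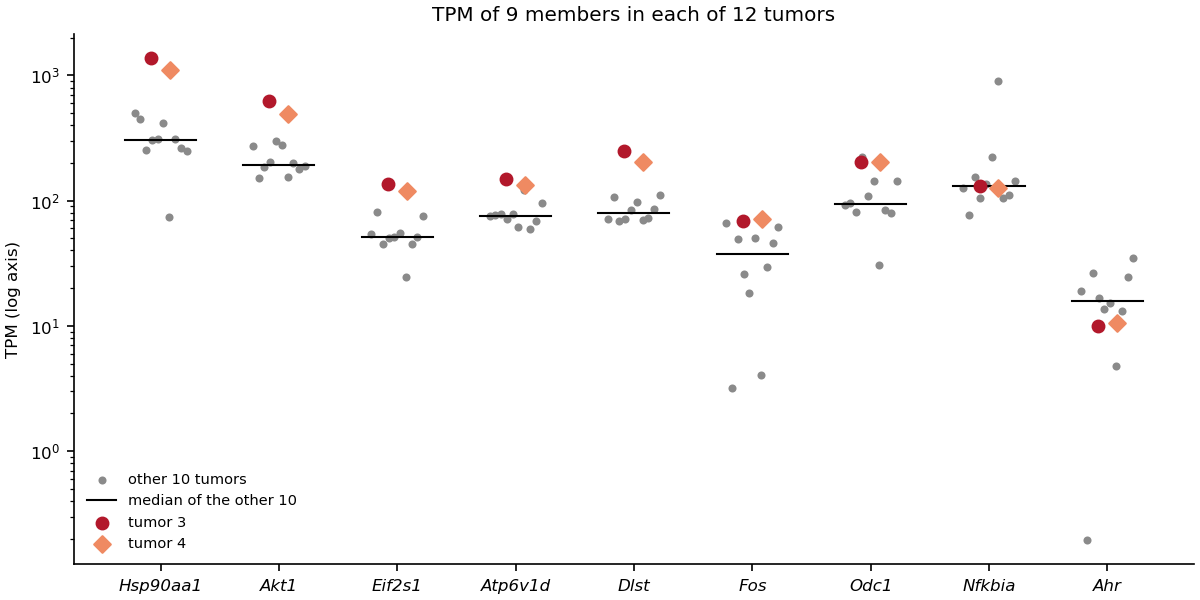
TPM on a log axis of 9 members in each of the 12 tumors, with tumor 3 as circles, tumor 4 as diamonds, the other 10 tumors in grey and a line at their median. For Hsp90aa1, Akt1, Eif2s1, Atp6v1d, Dlst and Fos tumors 3 and 4 are the highest of the 12, for Odc1 tumor 6 at 221 TPM is higher, and for Nfkbia and Ahr they lie within the others.

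All 5 genes of RNA processing and decay were above the median in both tumors, where 44.8% of all expressed genes were. Dicer1, which cuts pre-miRNAs and double-stranded RNA, was at 33.0 and 26.0 TPM, against 8.50 to 20.5 TPM with a median of 11.4. Papola, the nuclear poly(A) polymerase, was at 252 and 208 TPM, against 57.5 to 155 TPM with a median of 88.1. Both had no overlap with the other 10, and in both the highest of these was tumor 2. Erh, a small protein that binds RNA-processing complexes, was at 295 and 262 TPM, just above the 253 TPM of tumor 2. Srsf5, a splicing factor, and Zfp36l1, which brings AU-rich mRNAs to decay, had differences of only 0.42 and 0.47 although they lie among members with differences near 1. For Srsf5 tumor 2 was the highest at 726 TPM, and for Zfp36l1 tumors 11 and 12 were above both.

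Among the 7 metabolic enzymes, Dlst (chr12:85110833-85134845), the succinyltransferase of the 2-oxoglutarate dehydrogenase complex, stood out most from the other mice. It was at 248 and 204 TPM in tumors 3 and 4, against 69.3 to 112 TPM with a median of 79.2. The difference was 1.5, and the distance of 5.96 standard deviations from the other mice was the largest of all members. Dld, the dihydrolipoyl dehydrogenase of the same complex on the proximal side, was at 76.8 and 76.0 TPM, a difference of 0.40, with tumors 2 and 12 above both. Fut8, which adds the core fucose to N-glycans, was at 53.8 and 45.1 TPM, with tumor 2 higher at 69.5 TPM.

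Odc1, the rate-limiting enzyme of polyamine synthesis, was the proximal member with the largest difference, 1.1. It was at 202 and 203 TPM in tumors 3 and 4, and tumor 6 exceeded both at 221 TPM. Nampt, the rate-limiting enzyme of NAD salvage, had a difference of 0.39. Ckb, brain-type creatine kinase, was the only distal member below the median in both tumors, at 14.9 and 19.8 TPM against 4.28 to 31.2 TPM with a median of 20.5. Its neighbours among the members on either side, Eif5 and Bag5, had differences of 1.38 and 1.30, so adjacent members of the distal side differed by more than the interquartile range of the distal members.

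Of the 8 genes of the cytoskeleton, adhesion, transport and membranes, the motor genes were highest. Dync1h1, the heavy chain of cytoplasmic dynein, was at 122 and 97.7 TPM against 15.7 to 57.1 TPM, and Klc1, a kinesin light chain, was at 175 and 143 TPM against 28.7 to 91.8 TPM. Their differences were 1.33 and 1.35. Actn1, the actin crosslinker alpha-actinin 1, was at 242 and 222 TPM, and tumor 1 at 229 TPM lay between them. Gphn, the scaffold gephyrin that also completes the molybdenum cofactor, was at 27.2 and 21.6 TPM, below tumor 2 at 37.3 TPM. The proximal genes of this group were not above the rest: Cog5, of the Golgi tethering complex, had a difference of 0.28, Lamb1, a laminin chain of basement membranes, 0.14, and Tspan13, a tetraspanin, -0.64. Tspan13 was at 3.97 and 7.43 TPM, below the median of 9.10 TPM, and at 76.4 TPM in tumor 2.

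The DNA repair and replication genes, Mlh3 of the mismatch repair family and Cinp, a partner of CDK2 and of the ATR pathway, each had a difference of 1.02. Mlh3 was at 19.6 and 16.6 TPM against 3.83 to 11.5 TPM, and Cinp at 49.2 and 46.0 TPM against 13.2 to 34.4 TPM. Neither overlapped with the other 10 tumors. For 7 members, Cog5, Nampt, Hdac9, Ifrd1, Hif1a, Actn1 and Numb, another annotated gene overlaps on the same strand, so reads of the shared stretches could have gone to either gene.

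Tumor 3 was higher than tumor 4 for 38 of the 48 members, with a median gap of 0.180, as it was for 346 of the 545 other expressed chromosome 12 genes, with a median gap of 0.122, and for 9248 of all 16779 expressed genes, with a median gap of 0.038. On the distal side it was higher for 31 of 35, with medians of 1.20 in tumor 3 and 0.962 in tumor 4, and on the proximal side for 7 of 13, with medians of 0.227 and 0.279. The 10 members higher in tumor 4 were Odc1, Lamb1, Cog5, Hdac9, Ahr, Tspan13, Fos, Jdp2, Traf3 and Ckb. Markers moved between these tumors too: fibroblast genes summed to 1085 TPM in tumor 3 and 2851 TPM in tumor 4, adipocyte genes to 129 and 348 TPM, and epithelial genes to 6800 and 5150 TPM. The part of this cell content in the gap between the tumors was not tested. The tumors of this mouse differed by a median of 0.224 over members without regard to sign. Over the 4 within-mouse pairs the median was 0.262, from 0.224 to 0.520, and over the 42 between-mouse pairs without tumors 3 and 4 it was 0.446, from 0.189 to 1.17. The 20 between-mouse pairs with tumor 3 or 4 had a median of 0.950, which the choice of members raises.

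No other tumor had a median over the members as high as tumors 3 and 4. Each tumor's median over the members, against the tumors of other mice, lay from -0.58 in tumor 9 to 0.216 in tumor 12. For the distal members the range was from -0.61 in tumor 9 to 0.159 in tumor 2. The proximal members had medians of 0.590 in tumor 9 and 0.310 in tumor 12, above those of tumors 3 and 4. The other genes of the chromosome did not share the arrangement of the members in tumor 9, with medians of -0.38 on the proximal and -0.22 on the distal side. The number of members above the median of the other mice was 41 in tumor 3 and 43 in tumor 4, and from 6 in tumor 10 to 30 in tumors 7 and 12 among the rest.

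The rest of chromosome 12 was described in the same way, on the 545 other genes with a mean of at least 1 TPM. Their median difference was 0.590, and 179 of them, or 32.8%, were above all of the other 10 tumors in both tumors 3 and 4. The median depended on the filter on low values, at 0.790 for a mean of at least 10 TPM and 0.219 without a filter. For the 401 protein-coding genes among them the median was 0.809. The proximal 169 genes had a median of 0.348 and the distal 376 a median of 0.860. In both tumors 66.3% of the proximal and 72.9% of the distal genes were above the median, against 44.8% of all expressed genes. Above all of the other 10 were 17.8% and 39.6%, against 8.04%. The genes of the other autosomes, 15512 in number, had a median of 0.028, and 7.01% of them were above all others. Chromosome 12 was chosen as high in these tumors, so nothing is read from this gap.

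In windows of 10 Mb the other genes had medians between 0.257 and 0.585 over the first 4 windows and 0.402 in the window from 50 to 60 Mb, with only 11 genes and a median of 0 from 40 to 50 Mb. The median was 0.507 from 60 to 70 Mb, 0.860 from 70 to 80 Mb and 1.11 from 80 to 90 Mb. It stayed at 1.15 and 1.01 in the following windows. In the last window, from 110 Mb on, it was 0.030 over 127 genes, of which 64 were immunoglobulin heavy chain genes, and 1.12 without these. The medians thus went up between the windows from 60 to 90 Mb, and windows of this width do not tell a gradual change from a step.

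**Figure D3:**
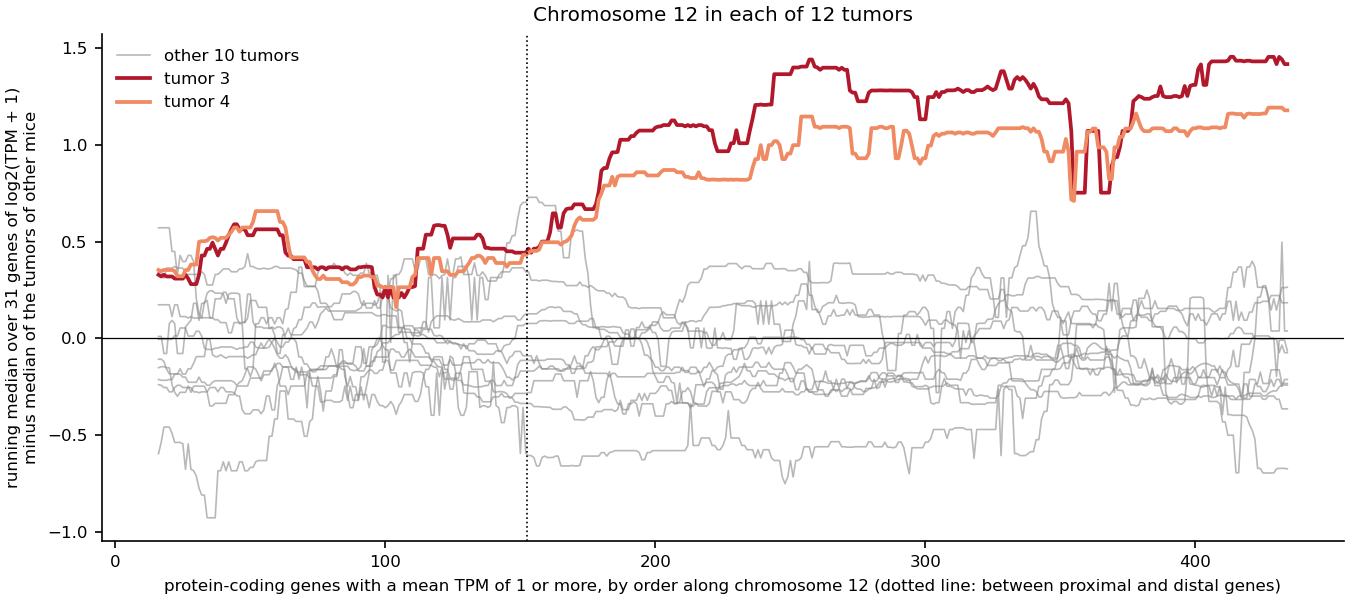
Running median over 31 protein-coding genes, in order along chromosome 12, of log2(TPM + 1) minus the median of the tumors of other mice, for tumors 3 and 4 in colour and the other 10 tumors in grey. Both coloured lines lie above 0 throughout, run near the upper grey lines left of the dotted line, and lie near or above 1 over most of the right side.

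The genes of the distal side did not all take part. Immunoglobulin heavy chain genes, which are made by B lymphocytes and plasma cells, had a median difference of -0.39 over 64 genes, with a range from -3.87 to 2.18. Many of these genes had a median near 0 TPM in the other tumors, where little or no fall can show. Ighv3-3 had a median of 0 and a highest of 211 TPM there. The median over the 64 genes is therefore a weak measure. Ighm, for example, was at 20.4 and 117 TPM against a median of 34.1 TPM, a difference of 0.52. Ighg1 was listed at 0 in tumor 3 and at 1.98 TPM in tumor 4, against a median of 24.3 TPM in the others, and Igha was at 13.0 and 17.4 TPM against a median of 139. Ighj2, Ighj1 and Ighg2c were the next lowest of the 298 other genes with a mean of at least 10 TPM. B lymphocyte markers summed to 0.889 and 3.88 TPM in these tumors, with a median of 4.58 TPM in the others, and the part of B-lineage cells in these values was not tested. Ncapg2, a condensin II subunit gene between this cluster and the end of the chromosome, chosen here after its value was seen, was at 60.8 and 47.0 TPM against a highest of 44.4 TPM.

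Of the 298 other chromosome 12 genes with a mean of at least 10 TPM, the 5 with the largest differences all exceeded every member. Gm266 had a difference of 4.62, at 52.5 and 41.9 TPM against 0 to 61.7 TPM with a median of 0.946, so its size rests on a median near 0 and another tumor was higher than both. Gpx2, a glutathione peroxidase of epithelia, had 3.80, at 1109 and 814 TPM against 0 to 392 TPM. Tmem30b, a flippase subunit, had 3.15, Adssl1, the muscle adenylosuccinate synthase, 2.75, and Ston2, an endocytic adaptor, 2.64. Tmem30b and Ston2 averaged 6.02 and 5.38 TPM over the other 10 tumors and so passed the limit of 10 TPM only through tumors 3 and 4. Adssl1 was at 116 and 98.5 TPM in the tumors with skeletal muscle markers, and 1 of the other tumors reached 113 TPM.

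Among the imprinted genes of the Dlk1-Dio3 region, Meg3 and Rian, non-coding RNAs of the maternal chromosome, had differences of 1.04 and 1.1. Meg3 was at 13.8 TPM in tumor 3 and 29.9 TPM in tumor 4, with a highest of 20.1 TPM in the others. Rian was at 17.8 and 30.4 TPM, with a highest of 21.6 TPM, so only tumor 4 exceeded the others for both genes. Dlk1, expressed from the paternal chromosome, was at 0.385 and 0.382 TPM with a difference of 0.06. Of the serpin genes, Serpina3n had 2.56, Serpina3g 0.96 and Serpina3f 0.01. Serpina3g was at 13.6 and 18.5 TPM, below a highest of 61.1 TPM in the others. Both of the imprinted RNAs were higher in tumor 4 than in tumor 3, unlike most distal members.

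Against the other chromosomes, chromosome 12 had the largest median in tumors 3 and 4. It was chosen because its genes were high in these tumors, so nothing is read from this rank. Over all 593 expressed genes of chromosome 12, members included, the median was 0.624 and 34.9% of genes were above all of the other 10 tumors. The next was chromosome 5 with a median of 0.319 and 14.7% of its genes. On chromosome 17 the median was 0.187 and the share 15.4%. The lowest medians were -0.35 on chromosome 19, -0.33 on chromosome 6 and -0.31 on chromosome 13. In the other 10 tumors the 200 chromosome medians, with the X chromosome included, ran from -0.62 to 0.369.

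**Figure D4:**
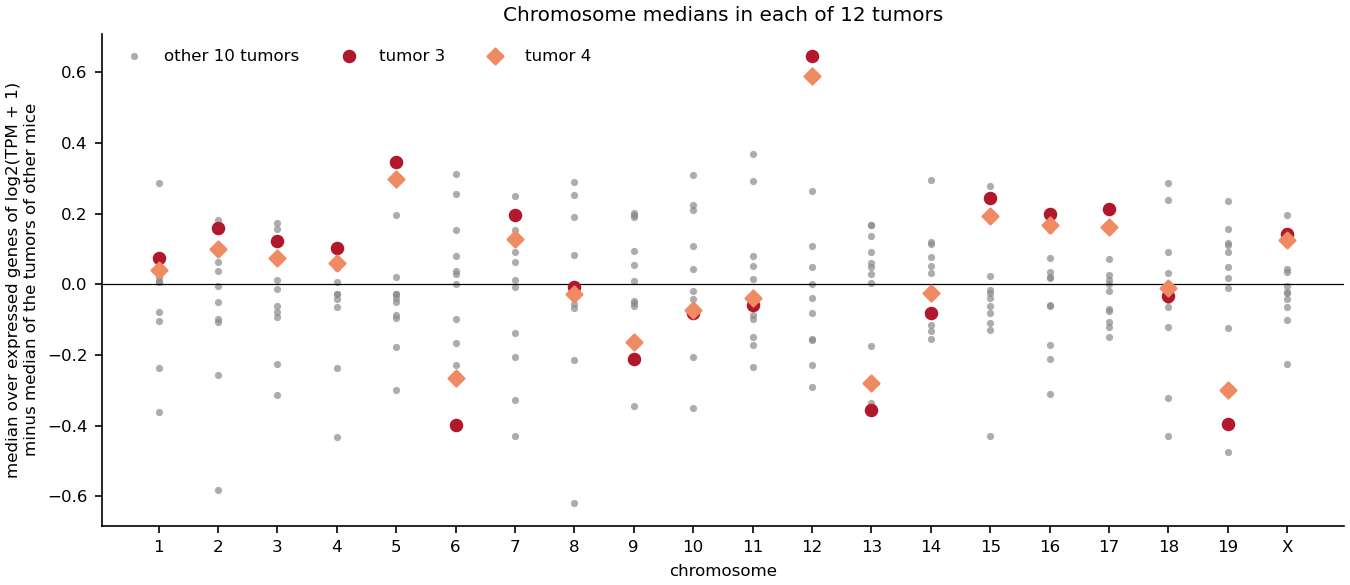
For each chromosome, the median over its expressed genes of log2(TPM + 1) minus the median of the tumors of other mice, with tumor 3 as circles, tumor 4 as diamonds and the other 10 tumors in grey. On chromosome 12, which was chosen as high in these tumors, tumors 3 and 4 lie at 0.646 and 0.589, above every other point.

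Many members encode parts of complexes whose other parts are made from other chromosomes. A list of 95 such partners was set up, of which 93 had a mean of at least 1 TPM. Their median difference was 0.010, with 39 above and 42 below the median of the other 10 in both tumors. Of all expressed genes 44.8% were above it and 37.2% below it. Above all of the other 10 were 8 of them, or 8.6%, close to the 8.04% of all expressed genes: Psma2, Dynll1, Hsp90ab1, Ppp2r1a, Ppp2r5d, Cog1, Jun and Jund. At 0.5 or more in both tumors were 12, or 12.9%, against 16.4% of all expressed genes.

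The 12 other subunits of the 20S core had a median of -0.13, where Psma3 had a difference of 0.83. The 6 other genes of eIF2 and eIF2B lay from -0.28 to 0.27, with no overlap with Eif2s1 and Eif2b2 at 1.30 and 1.71. The 7 listed V1 subunit genes on other chromosomes lay from -0.66 to 0.07, below Atp6v1d at 0.89. Atp6v1c2, another V1 subunit gene on chromosome 12 and looked up after the values were seen, had a difference of 1.04. The partners of Dlst and Dld in the dehydrogenase complexes lay from -0.53 to 0.22, and those of Dync1h1 and Klc1 from -0.55 to 0.68, the highest being the dynein light chain Dynll1. In these complexes the distal members stood above every listed partner on another chromosome, but they were chosen as high in these tumors and the partners were not, so nothing is read from this order.

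Some partners were also high in tumors 3 and 4. Hsp90ab1, the constitutive HSP90 encoded on chromosome 17, was at 3552 and 3060 TPM against 907 to 2635 TPM, while Akt2, a paralog of Akt1, had a difference of 0.06. The scaffold subunit of PP2A, Ppp2r1a, and the regulatory subunit Ppp2r5d, both on chromosome 17, each had a difference of 0.57. Of the 7 AP-1 partners of Fos and Jdp2, with a median of 0.697, 5 were above the median of the other 10 in both tumors, where 44.8% of all expressed genes were, while Junb and Atf3 were below it in tumor 4. Jun was at 141 and 129 TPM against 6.46 to 105 TPM, and Jund at 138 and 121 TPM against 24.7 to 92.3 TPM.

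The HIF and AHR list held the most distant values of all partners. Car9, a carbonic anhydrase induced by low oxygen, had the highest difference, 2.47, and Cyp1b1, a target of AHR, the lowest, -1.25. Tiparp, another AHR target, went the other way, with a difference of 0.58. Vegfa, Slc2a1, Pgk1, Ldha and Bnip3, which HIF also induces, had differences from 0.450 to 0.858. No HIF target of the list was above all of the other 10 in both tumors, and Arnt, the shared partner of HIF1A and AHR, had a difference of -0.77. The NF-kB partners of Nfkbia and Traf3 had a median of -0.45, and the median of the polyamine list around Odc1 was -0.13. Smaller lists gave medians of 0.286 for miRNA processing beside Dicer1, -0.05 for mismatch repair beside Mlh3, -0.11 for the COG complex beside Cog5 and -0.45 for laminin chains beside Lamb1. The 4 laminin genes went both ways, with Lama3 at a difference of 1.83.

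**Figure D5:**
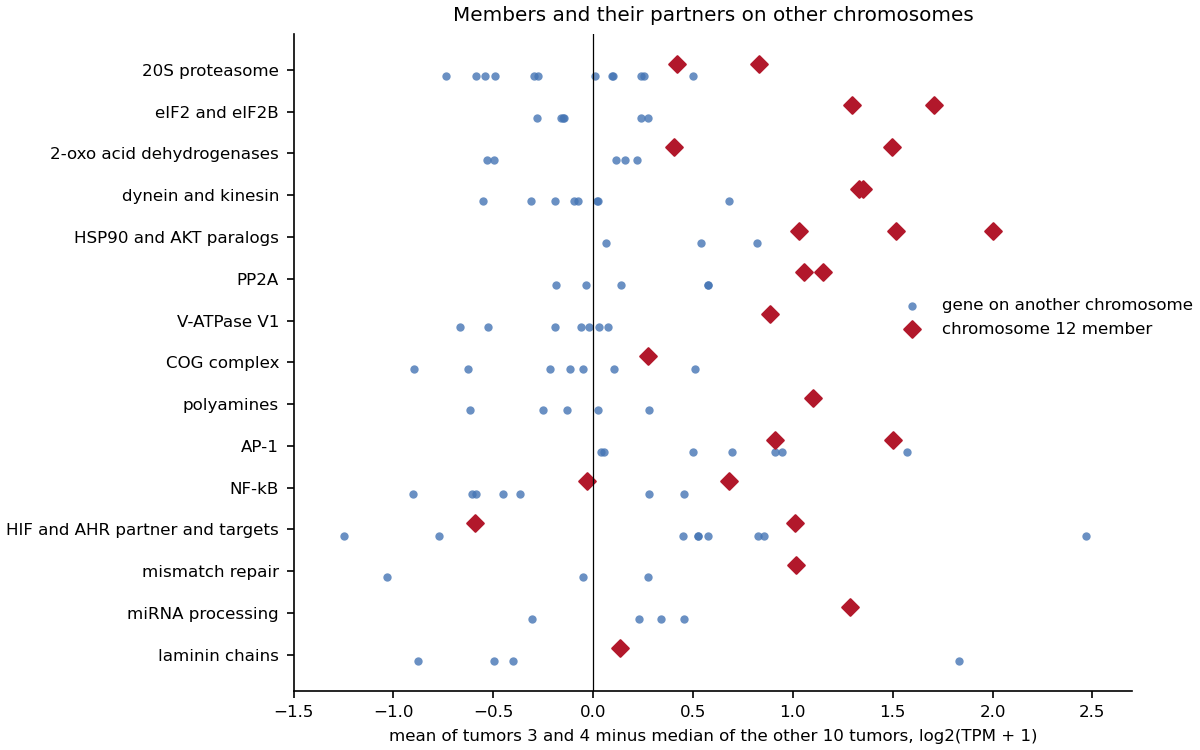
Mean of tumors 3 and 4 minus the median of the other 10 tumors, in log2(TPM + 1), for members (diamonds) and for most of their listed partners on other chromosomes (points), by complex or pathway. The partners of eIF2, the dehydrogenases, the motors and the V-ATPase lie around 0 and below the distal members, while those of AP-1 have a median of 0.697.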

How the data were processed

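The authors extracted RNA from a piece of each tumor, made stranded polyA libraries, aligned the paired reads to GRCm38 with HISAT and deposited TPM (transcripts per 1000000), computed with StringTie 2.1.6 per the submitters' processing notes, with 1 value per Ensembl gene and tumor. How transcripts were summed per gene, and whether strand was used, is not given in the sources used here. TPM of a tumor summed to between 999770 and 999909, so a few very abundant transcripts lower all others, and depth is unknown.

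From these values log2(TPM + 1) was computed with Python 3.11.15, numpy 2.4.6 and pandas 2.3.3. Each member was compared between tumors 3 and 4 and the median of the other 10 tumors. Genes with a mean of at least 1 TPM over all tumors, 16779 in number, gave the background. Positions are from GENCODE vM21 (GRCm38), which is the same build but not the annotation release used for alignment, and promoters are from RefSeq, where 40 of the 48 members matched. The script was tested on simulated data. The members, the role groups, the partner lists and the marker lists were chosen with earlier results of these data known. The genes named are the members, the partners with the highest and the lowest difference of all, the 5 highest and 5 lowest other chromosome 12 genes with a mean of at least 10 TPM, the listed families, and 2 genes said in the text to be later choices. The other partners that are named are those above all of the other 10 tumors and the lists described in the text. No test across genes was made, since the members were chosen from the contrast described. The values of 1 member are not reported here by name, though it is in the counts and medians.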

Additional observations from a re-analysis of the deposited data

Results flagged for a closer look

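Over the 9 mice, with tumors of a mouse averaged, 52 values were examined for a mouse lying far from the rest by Dixon's ratio (95% level), and 16 were picked out. Chance picks out about 1 in 20 values that were not selected, but these members were chosen because tumors 3 and 4 were high, so that rate does not apply here, and nothing is read from the number picked out. The mouse of tumors 3 and 4 was picked out 8 times, each time on the high side, the direction in which the members and the chromosome had been chosen. On the log2(TPM + 1) scale its mean was 5.44 for Ppp2r5e with the nearest mouse at 4.58, 6.17 for Numb with the nearest at 5.19, 7.82 for Dlst with the nearest at 6.75, 7.66 for Eif2b2 with the nearest at 6.22, and 8.16 for Eif5 with the nearest at 7.18. Its median difference was 1.03 over the distal members with the nearest mouse at 0.159, 0.948 over all members with the nearest at 0.146, and 0.590 over the other chromosome 12 genes with the nearest at 0.0956.

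Tumor 2, the tumor with B lymphocyte markers and almost no epithelial markers, was picked out 7 times. It was high for Dld at 7.22, Cog5 at 4.80, Hdac9 at 5.90, Tspan13 at 6.27 and Srsf5 at 9.51, and low for Ahr at 0.257 and Actn1 at 4.15. Tumor 9 was picked out for Nfkbia, at 9.82 with the nearest mouse at 7.81.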

How the results depend on the processing

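The median over members, the counts of members and the interquartile range were computed under 20 or 21 alternatives each, and none moved beyond its range of tolerance (1.5-fold for counts, the spread between mice for medians). The median difference of the members ran from 0.843 with tumor 4 alone to 1.04 with tumor 3 alone, the members above all other tumors from 21 with tumors centred on the other autosomes to 34 without tumors 2, 8 and 9, and the median over partners from -0.05 to 0.02. The median over the other chromosome 12 genes did depend on the filter on low values: it was 0.590 at a mean of at least 1 TPM, 0.790 at a mean of at least 10 TPM and 0.219 without a filter, and its distance to the other autosomes was 0.562, 0.778 and 0.212. On the log2(TPM + 1) scale genes near 0 TPM cannot show a difference, and the table gives no depth to set a limit. No paired analysis was possible because the tumors form a single group with no matched samples.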
